A study of Homo sapiens with 9 samples.

Results

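The genes described here are 9 secreted or surface-bound regulators of matrix breakdown: the plasminogen activators PLAU and PLAT, the receptor PLAUR, the serpin SERPINE2, the metalloproteinases MMP1 and MMP3, the metalloproteinase inhibitors TIMP1 and TIMP3, and the procollagen peptidase ADAMTS2. They were chosen by name, with earlier results of these data known, and all of their probe sets were taken. They made up 9 of 19775 genes and 18 of 54675 probe sets on the Affymetrix arrays. RNA came from SK-N-AS, an established human neuroblastoma cell line grown in serum-containing medium. The cells were treated with an expression construct for full-length NRSF (RE-EX1), with one for a truncated form of it (HZ4), or with neither (untreated), and each of these 3 series was sampled at 0, 24 and 48 h. NRSF, also called REST, is a transcriptional repressor of neuronal genes. Each of the 9 groups was 1 array. The submitters describe triplicates in 3 batches, but no label gives a batch or a replicate number, and whether cultures were pooled for an array is not stated. Changes with time were therefore tested with the 3 series as repeats, so the p-values cover no more than the spread among these arrays, which may be technical.

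Plasminogen activators cut the circulating zymogen plasminogen to plasmin, which degrades fibrin and other matrix proteins and activates several metalloproteinase zymogens. PLAU (urokinase) acts at the cell surface while bound to its receptor PLAUR, PLAT (tissue-type activator) acts mainly on fibrin and in the nervous system, and SERPINE2 (protease nexin-1) blocks both activators and thrombin. MMP1 cleaves fibrillar collagen, MMP3 cleaves a broad range of matrix proteins and activates other metalloproteinases, TIMP1 and TIMP3 inhibit them, and ADAMTS2 removes the amino-terminal propeptide of procollagens. Several genes of this system are known targets of AP-1, the dimer of FOS and JUN family proteins that growth factors and serum induce.

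Upstream sequences in the RefSeq table (GRCh38.p14) were matched for 6 of the 9 genes, with 8 windows of 250 bases before a start, since PLAU and SERPINE2 have 2 starts each. PLAUR lies at chr19:43646095-43670169 and TIMP1 at chrX:47582436-47586789. Their windows, chr19:43670170-43670419 on the minus strand and chrX:47582186-47582435 on the plus strand, are shown because each holds 1 AP-1-like element, in capitals below. The PLAUR signal was highest at 24 h in every series. That of TIMP1 was highest at 24 h with full-length NRSF and at 48 h in the other series. A link of these elements to the time courses was not tested.
PLAUR: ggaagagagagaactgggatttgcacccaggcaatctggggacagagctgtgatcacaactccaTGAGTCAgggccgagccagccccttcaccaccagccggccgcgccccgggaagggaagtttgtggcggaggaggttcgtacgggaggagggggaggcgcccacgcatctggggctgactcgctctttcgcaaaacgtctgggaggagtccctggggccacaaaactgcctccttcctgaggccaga
TIMP1: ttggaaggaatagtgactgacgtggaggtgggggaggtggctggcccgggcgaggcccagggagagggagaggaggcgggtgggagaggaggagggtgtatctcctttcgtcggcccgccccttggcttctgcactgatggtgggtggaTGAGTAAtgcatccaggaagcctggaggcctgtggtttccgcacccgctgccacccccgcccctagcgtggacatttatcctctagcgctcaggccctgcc
The element TGANTCA was searched on both strands and was found in 6.57% of 35116 upstream windows of this length in the table. PLAUR had the only match among the 8 windows, TGAGTCA, which begins 186 bases before the start. MMP1, MMP3 and PLAT had no window and were not searched, and neither was sequence farther than 250 bases before a start. Whether those stretches hold the element is therefore not known here. The variant TGAGTAA was added to the search after the sequences had been read. It was found in 2.21% of all windows and, among the 8 windows, only in that of TIMP1, 101 bases before the start. TATAAA (10.7% of all windows) and the RE1 parts CAGCACC (6.16%) and GGACAGC (4.76%), pieces of the element that NRSF binds, had no match in the 8 windows. A match here is a string of letters and not a shown binding site.

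The deposited signals of all arrays shared one scale, with a trimmed mean of 150.02 on each. Median signals lay between 30.87 and 42.67, the highest being that of the truncated NRSF 24 h array, which also had the lowest median correlation with the other arrays (0.909, against 0.922 to 0.931). Signals under a floor of 8.266, the 25th percentile of all values, were set to it before taking log2. Of the mesenchymal neuroblastoma markers, all 8 passed the filter on low signals, with summed signals of 20435 to 27616. Of the 6 sympathoadrenal markers with a probe set, 4 passed, among them GATA3 (1346 to 1912) and ISL1 (189 to 485), and TH and DBH did not. Their summed signals were 1742 to 2538. The summed epithelial markers were 2601 to 3960 at 0 h, 3606 to 4529 at 24 h and 5729 to 6403 at 48 h, led by KRT18, while EPCAM stayed at or below 21.1 and KRT19 at or below 30.57. The summed blood markers were 88.74 to 156.35 at 0 h, 102.65 to 220.15 at 24 h and 184.11 to 257.8 at 48 h, led by PTPRC, with CD14 at or below 40.34. The part of these shifts in the results below was not tested. Probe set 212920_at of REST, its brightest, read 171 to 274 in full-length NRSF cells, 162 to 342 in truncated NRSF cells and 177 to 445 in untreated cells. In the same order, 204535_s_at read 3.95 to 16.5, 37.1 to 122 and 6.63 to 44.1. Probe set 204536_s_at read 16.4 to 50.4, 22.6 to 31.0 and 24.6 to 47.3. These REST probe sets cannot check the constructs, since whether they detect the construct transcripts is not known. In RNA of whole cultures, fewer cells with a transcript and less of it per cell cannot be told apart.

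PLAU, the urokinase gene (chr10:73908832-73917494), had the smallest adjusted p of the 9 genes at 24 h, when its signal was higher in every series. Signals at 0, 24 and 48 h were 768, 2770.4 and 1412 in full-length NRSF cells, 1085, 2219.8 and 1302 in truncated NRSF cells and 1102, 2788 and 1600.4 in untreated cells. All 3 arrays at 24 h lay above every array of the other times, and the 48 h arrays also lay above the 0 h arrays. The share of all genes whose arrays separate in this way was not counted. Such separation is therefore only a description, here and for the genes below. The mean PLAU signal was 985 ± 188 at 0 h, 2593 ± 323 at 24 h and 1438 ± 151 at 48 h (SD, n = 3 series). PLAU rose by 1.41 ± 0.15 on the log2 scale at 24 h (2.65-fold, SE, adjusted p = 1.4e-05), from limma with Benjamini-Hochberg adjustment over 13799 genes, as are the adjusted p-values that follow. It was still 0.56 ± 0.15 higher at 48 h than at 0 h (adjusted p = 0.034), and it fell by 0.85 ± 0.15 between 24 and 48 h (adjusted p = 0.0056). The 24 h rise held in 13 of 13 alternatives. Both PLAU probe sets have identifiers that carry a mark of possible cross-hybridization, so PLAU could not be fitted with marked probe sets left out. The 48 h rise was lost without the full-length series (0.40, adjusted p = 0.25) and without the untreated series (0.57, adjusted p = 0.15), and the later fall without the full-length series (-0.79, adjusted p = 0.065).

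The other PLAU probe set, 211668_s_at, was a second reading of the same RNA. Its signal was 498, 1006 and 696.5 in full-length NRSF cells, 431, 1574 and 859.9 in truncated NRSF cells and 428, 1194 and 797 in untreated cells at 0, 24 and 48 h. It too was highest at 24 h in each series, with changes of 1.45 ± 0.17 at 24 h (adjusted p = 1.4e-05) and 0.79 at 48 h (adjusted p = 0.008) in a fit of all probe sets, which called 13.1% of them at 24 h, 6.22% at 48 h and 2.63% between the later times. Its correlation with the brighter probe set was 0.84 over the 9 arrays.

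PLAUR, the urokinase receptor, had the same 24 h maximum but was back near its 0 h level at 48 h. Its signal at 0, 24 and 48 h was 338, 806 and 302 in full-length NRSF cells, 297, 917 and 314 in truncated NRSF cells and 365, 692 and 458 in untreated cells. The 24 h arrays did not overlap those of either other time, while the 0 h and 48 h arrays overlapped. The mean was 333 ± 34.2 at 0 h, 805 ± 113 at 24 h and 358 ± 87.1 at 48 h (SD, n = 3 series). PLAUR rose by 1.27 ± 0.19 at 24 h (2.41-fold, adjusted p = 0.00029) and fell by 1.18 ± 0.19 between 24 and 48 h (adjusted p = 0.002). The 48 h difference from 0 h was 0.08, with a 95% confidence interval of -0.32 to 0.49.

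Of the other PLAUR probe sets, 211924_s_at repeated the course, with 205, 562 and 192 in full-length NRSF cells, 335, 618 and 222 in truncated NRSF cells and 281, 819 and 239.8 in untreated cells. Its change was 1.29 at 24 h (adjusted p = 0.00018) and -1.60 between 24 and 48 h (adjusted p = 0.00013). The dim 214866_at read 30.7 to 105.2 over all arrays and was not called at 24 h (0.75 ± 0.45, adjusted p = 0.32). It is also the only PLAUR probe set whose identifier carries no mark of possible cross-hybridization. With marked probe sets left out, PLAUR was therefore called neither at 24 h (0.75, adjusted p = 0.31) nor between 24 and 48 h (-0.50, adjusted p = 0.63). The later fall was also not called without the full-length series (-1.07, adjusted p = 0.091), with no filter on low signals (-1.18, adjusted p = 0.084) or with no variance trend (-1.18, adjusted p = 0.15).

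PLAT, the tissue-type activator gene on chromosome 8, moved opposite to PLAU and PLAUR at 24 h. Signals at 0, 24 and 48 h were 1163, 496.7 and 885 in full-length NRSF cells, 958, 507 and 997 in truncated NRSF cells and 631, 605 and 657 in untreated cells. The 3 arrays at 24 h were the lowest of the 9, but the untreated array at 24 h lay close to its own 0 h array. The mean was 917.5 ± 268.3 at 0 h, 536 ± 59.8 at 24 h and 846 ± 173 at 48 h (SD, n = 3 series). PLAT fell by 0.74 ± 0.19 at 24 h (adjusted p = 0.015). The changes of the single series were -1.23 (full-length NRSF), -0.92 (truncated NRSF) and -0.06 (untreated). The call was lost without the full-length series (-0.49, adjusted p = 0.25), without the truncated series (-0.64, adjusted p = 0.081) and without the truncated 24 h array alone (-0.61, adjusted p = 0.088), and it held in 6 of 13 alternatives. The single PLAT probe set carries the same mark, so it too could not be fitted without marked probe sets. At 48 h PLAT differed from 0 h by -0.09, with a 95% confidence interval of -0.50 to 0.31.

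SERPINE2, the inhibitor of both activators (chr2:223975045-224039286), was higher late. Its signal at 0, 24 and 48 h was 742, 1137 and 1306 in full-length NRSF cells, 700.2, 857 and 1486 in truncated NRSF cells and 827, 680.4 and 959 in untreated cells. All 48 h arrays lay above all 0 h arrays, and the 24 h arrays overlapped with both. SERPINE2 rose by 0.70 ± 0.18 at 48 h (1.63-fold, adjusted p = 0.021), and its 24 h change was 0.21 ± 0.18 (adjusted p = 0.49). The 48 h call was lost without the full-length series (0.65, adjusted p = 0.17) and without the truncated series (0.51, adjusted p = 0.16). The dim probe set 227487_s_at, at 20.9 to 71.2, was not called (0.50 ± 0.54 at 48 h, adjusted p = 0.66). Its 48 h change was 1.77 with full-length NRSF, -0.23 with truncated NRSF and -0.03 in untreated cells, so it did not repeat the rise in every series.

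**Figure D1:**
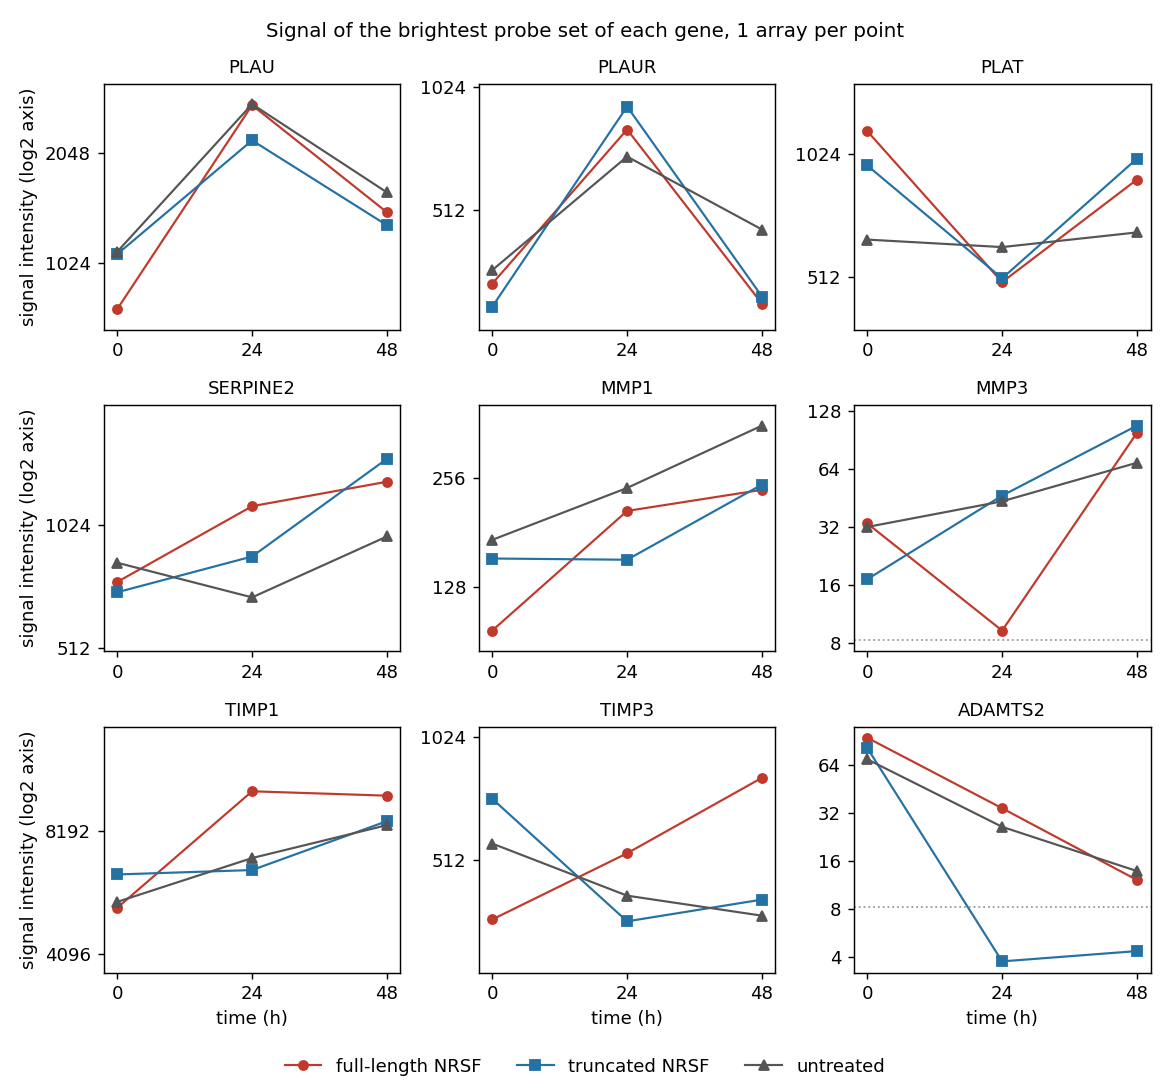
Signal intensity (log2 axis) of the brightest probe set of each of the 9 genes at 0, 24 and 48 h, with 1 array per point and a line for each series; the dotted line is the floor of 8.266, drawn where a gene comes near it. PLAU and PLAUR peak at 24 h in all 3 series, and TIMP3 is higher than at 0 h only in the full-length series. PLAU, SERPINE2, MMP1, MMP3 and TIMP1 have all 48 h arrays above all 0 h arrays, and the share of all genes that do so was not counted.

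MMP1, the interstitial collagenase gene (chr11:102789919-102798160), was higher at 48 h in every series. Signals at 0, 24 and 48 h were 97.1, 207 and 237 in full-length NRSF cells, 153, 152 and 245 in truncated NRSF cells and 173, 239.9 and 356 in untreated cells. The 48 h arrays lay above all 0 h arrays, whereas the 24 h arrays overlapped with those of 0 h. MMP1 rose by 1.00 ± 0.24 at 48 h (2-fold, adjusted p = 0.015), and the change at 24 h was 0.52 ± 0.24 (adjusted p = 0.16). Without the full-length series the 48 h change was 0.86 (adjusted p = 0.15) and without the untreated series 0.98 (adjusted p = 0.1).

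MMP3, the stromelysin-1 gene beside MMP1 on chromosome 11 (chr11:102835801-102843609), was dim throughout. Its signal at 0, 24 and 48 h was 33.5, 9.28 and 98.97 in full-length NRSF cells, 17.2, 46.6 and 108 in truncated NRSF cells and 32.1, 43.6 and 69.2 in untreated cells. The 3 arrays at 48 h were the 3 highest, and the full-length array at 24 h was close to the floor. The 48 h change was 1.78 ± 0.62 and missed the threshold (adjusted p = 0.091), but it passed with the floor at the 40th percentile (1.64, adjusted p = 0.019). At 24 h the change was 0.01 ± 0.62 (adjusted p = 0.99), with a 95% confidence interval of -1.30 to 1.33, and without the truncated series it was -0.70.

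TIMP1, an inhibitor of most metalloproteinases, had the highest signals at 48 h or, with full-length NRSF, already at 24 h. Signals at 0, 24 and 48 h were 5307, 10235 and 9986 in full-length NRSF cells, 6405, 6566 and 8649 in truncated NRSF cells and 5487, 7026 and 8457 in untreated cells. All 48 h arrays exceeded all 0 h arrays, as did the 24 h arrays by a narrow margin in the truncated series. TIMP1 rose by 0.66 ± 0.16 at 48 h (1.58-fold, adjusted p = 0.02). The 24 h change of 0.45 ± 0.16 was not called (adjusted p = 0.076) but was called after quantile normalization (0.58, adjusted p = 0.016). The 48 h call was lost without the full-length series (0.53, adjusted p = 0.12) and without the untreated series (0.67, adjusted p = 0.11).

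TIMP3, the inhibitor that binds to the matrix (chr22:32801705-32863041), did not follow a common course. The brightest probe set, 201149_s_at, read 366, 531 and 812 in full-length NRSF cells, 722, 362 and 409 in truncated NRSF cells and 561, 418 and 374 in untreated cells at 0, 24 and 48 h. It was above its own 0 h array at both later times with full-length NRSF and below it at both in the other series. The full-length series also began with the lowest of the 0 h signals. The beta-actin control, 3′ over 5′ probe set, reads higher in more degraded RNA. This ratio was 4.187, 3.629 and 2.489 in full-length NRSF cells, 2.251, 3.227 and 2.841 in truncated NRSF cells and 2.724, 2.451 and 3.471 in untreated cells at 0, 24 and 48 h. It was below its own 0 h array at both later times with full-length NRSF and above it at both with truncated NRSF, opposite to the TIMP3 signal. In untreated cells the ratio moved the same way as TIMP3 at 24 h and opposite to it at 48 h. Its part in the TIMP3 result was not tested. The highest ratio, 4.187, was that of the 0 h array from which all full-length changes are taken. Its part in the results of the other genes was not tested either. Over the 3 series the TIMP3 change was -0.29 ± 0.27 at 24 h (adjusted p = 0.54) and -0.08 at 48 h (adjusted p = 0.9). The other TIMP3 probe sets had correlations of 0.03, 0.38 and 0.13 with the brightest over the 9 arrays, and none of them was higher than its own 0 h array by more than 0.25 in either construct series.

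ADAMTS2, the procollagen peptidase gene (chr5:179110853-179345461), was the only member with lower signals at both later times in all 3 series. Its brightest probe set, 226311_at, read 94.4, 34.2 and 12.2 in full-length NRSF cells, 81.4, 3.76 and 4.36 in truncated NRSF cells and 69.2, 26.1 and 13.8 in untreated cells at 0, 24 and 48 h. All later arrays lay below all 0 h arrays, and the truncated arrays at 24 and 48 h lay under the floor, so their changes are bounds and the fitted values depend on the floor. ADAMTS2 fell by 2.06 ± 0.67 at 24 h (adjusted p = 0.047) and by 2.86 ± 0.67 at 48 h (adjusted p = 0.015). The 24 h call held in 2 of 13 alternatives and was lost without any one series: -2.35 (adjusted p = 0.15) without full-length, -1.44 (adjusted p = 0.25) without truncated and -2.38 (adjusted p = 0.11) without untreated, and -1.55 (adjusted p = 0.18) without the truncated 24 h array. The 48 h call was lost without the full-length series (-2.81, adjusted p = 0.15) and without the untreated series (-3.13, adjusted p = 0.068). Both other ADAMTS2 probe sets failed the filter on low signals, and their correlations with the brightest were -0.05 and -0.08. Averaging its 3 probe sets gave changes of -0.41 (adjusted p = 0.72) at 24 h and -0.52 (adjusted p = 0.68) at 48 h.

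**Figure D2:**
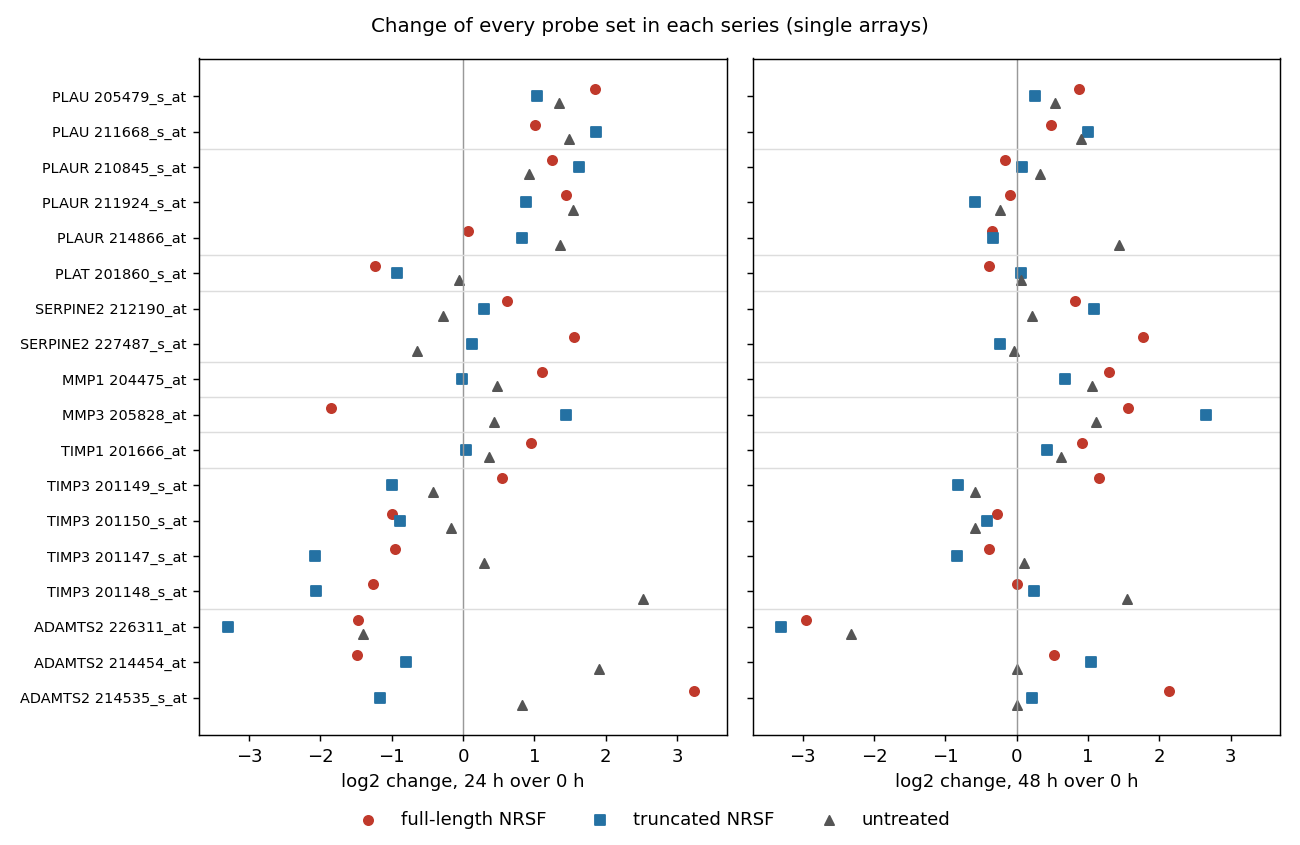
Log2 change of each of the 18 probe sets from the 0 h array of the same series, at 24 h (left) and 48 h (right), with 1 array pair per point and floored signals. Both bright probe sets of PLAU and of PLAUR lie to the right of 0 at 24 h in all 3 series, and the probe sets of TIMP3 and of ADAMTS2 scatter on both sides.

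All 9 members passed the filter, and 16 of their 18 probe sets did. At 24 h, 4 members were called, PLAU and PLAUR up and PLAT and ADAMTS2 down, beside 16.2% of all genes tested (8.04% up and 8.2% down). At 48 h, 5 were called, PLAU, SERPINE2, MMP1 and TIMP1 up and ADAMTS2 down, beside 8.38% of all genes (4.5% up and 3.88% down). Between 24 and 48 h, 2 were called, PLAU and PLAUR, both down, beside 3.5% of all genes (1.78% down). The median change of the members was 0.21 at 24 h, 0.56 at 48 h and 0.21 between the later times, and that of all genes was -0.03, -0.01 and 0.01. Because the members were chosen with earlier results of these data known, a share or median above that of all genes is only a description. All of the 48 h calls were lost without the full-length series, which left 0 members called of 9, and also with no filter on low signals or with no variance trend. Of 13 alternatives, the 48 h calls of PLAU and ADAMTS2 held in 8 each. Of 14, that of MMP1 held in 9 and those of SERPINE2 and TIMP1 in 8 each. The calls between 24 and 48 h held in 9 of 13 for PLAU and 10 of 14 for PLAUR.

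**Figure D3:**
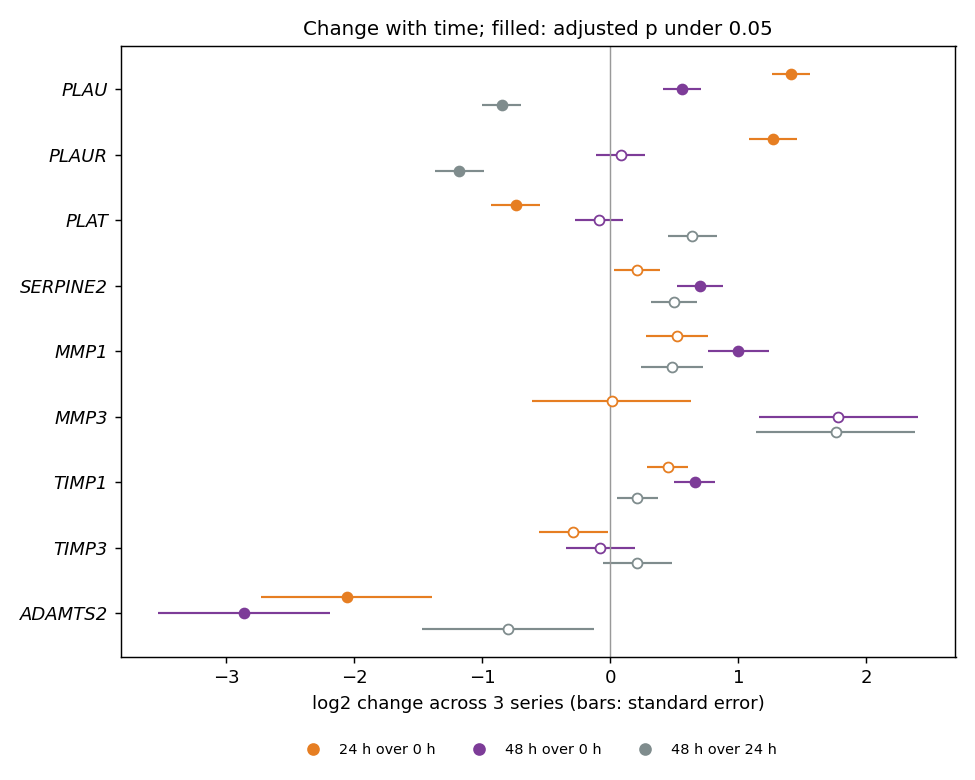
Log2 change of the 9 members between times across the 3 series (horizontal axis), with bars for the standard error and filled points for an adjusted p under 0.05. PLAU and PLAUR have filled points to the right at 24 h and to the left between 24 and 48 h, and ADAMTS2 lies far left at both later times with the widest bars.

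Within single series, a change of 2-fold or more from the 0 h array has no replicate check. It was reached at 24 h by 6 members with full-length NRSF (19.6% of all genes), 4 with truncated NRSF (27.1%) and 2 in untreated cells (18.6%). At 48 h it was reached by 4 members with full-length NRSF (18.5%), 3 with truncated NRSF (19.1%) and 3 in untreated cells (17.7%). PLAU reached it at 24 h in all 3 series, with changes of 1.85 in full-length NRSF cells, 1.03 in truncated NRSF cells and 1.34 in untreated cells. Between the 0 h arrays themselves no member differed by 2-fold, beside 14.9% of all genes for full-length over truncated, 14.9% for full-length over untreated and 13.2% for truncated over untreated.

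The constructs were compared by setting the change of each series from its 0 h array against that of another series, with 24 and 48 h as repeated readings of 1 effect. Their standard errors, intervals and p-values therefore do not cover variation between replicate cultures. Net of untreated, the readings at 24 and 48 h differed in sign for MMP3 with full-length NRSF (-2.29 and 0.46). They also did for PLAUR with full-length (0.33 and -0.49) and truncated NRSF (0.70 and -0.25). The other values net of untreated kept their sign. No label names a series with an empty or control construct. In values net of untreated, an effect of NRSF and one of receiving a construct cannot be told apart. In limma with Benjamini-Hochberg adjustment, 0 of 9 members were called for full-length NRSF net of untreated (0.00725% of all genes), 0 for truncated NRSF net of untreated (0.0362%) and 0 for full-length over truncated NRSF (0.0145%). At an unadjusted p under 0.05 there were 3 of 9 members for full-length NRSF net of untreated (4.19% of all genes), 1 for truncated NRSF net of untreated (7.65%) and 3 for full-length over truncated NRSF (6.18%). These 7 of 27 comparisons share arrays. For PLAU, full-length NRSF net of untreated was 0.43, with a 95% confidence interval of -0.18 to 1.03, and truncated NRSF net of untreated was -0.29, with an interval of -0.90 to 0.32. Full-length over truncated NRSF was 0.72 for PLAU. The other PLAU probe set, 211668_s_at, had the opposite sign in all of these. It gave -0.44 for full-length net of untreated, 0.25 for truncated net of untreated and -0.68 for full-length over truncated. For MMP3 the intervals net of untreated ran from -3.62 to 1.78 with full-length NRSF and from -1.43 to 3.97 with truncated NRSF.

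TIMP3 had the smallest p of the 27, with 1.75 ± 0.38 for full-length over truncated NRSF (95% confidence interval 0.96 to 2.55, adjusted p = 0.17). The difference was called after median centring of the arrays (2.15, adjusted p = 0.049, where the median of all genes was 0.38) and without the truncated 24 h array (1.78, adjusted p = 0.022). The second of these fits leaves the truncated series 1 later array, which is assumed to vary like those of the other series. Full-length net of untreated was 1.35 ± 0.38 (adjusted p = 1). The other TIMP3 probe sets gave 0.02, 0.78 and 0.28 for full-length over truncated, and -0.26, -0.88 and -2.68 for full-length net of untreated. Averaged over the TIMP3 probe sets, the value net of untreated was -0.62. SERPINE2 was 0.75 ± 0.32 for full-length net of untreated (adjusted p = 1) and 0.72 ± 0.32 for truncated net of untreated (adjusted p = 0.61), both relative to the same untreated arrays. PLAT, whose untreated signal was level, was -0.81 ± 0.36 for full-length net of untreated (adjusted p = 1) and -0.43 ± 0.36 for truncated net of untreated (adjusted p = 0.85).

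**Figure D4:**
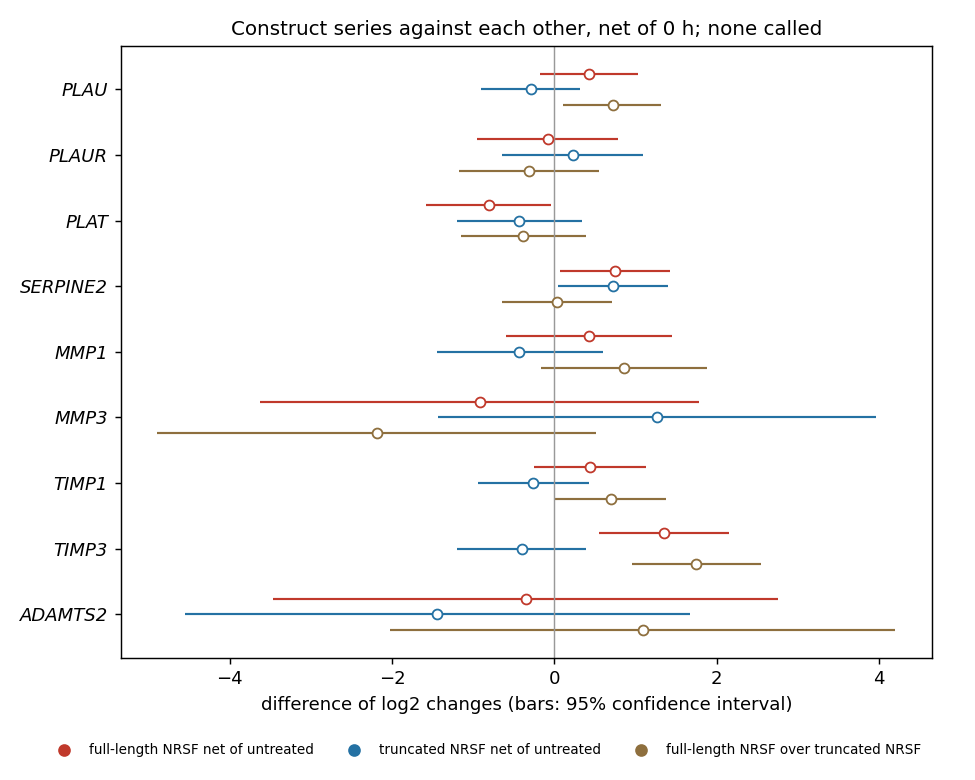
Difference of log2 changes from 0 h between series for the 9 members, with bars for the 95% confidence interval; open points were not called. The intervals of TIMP3 for full-length net of untreated and full-length over truncated exclude 0 before adjustment, as do some of PLAU, PLAT, SERPINE2 and TIMP1, and the intervals of MMP3 and ADAMTS2 are the widest.

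Other genes of the same systems were read from the same fit, from lists of which the filter on low signals kept only some. The counts called in each list stand beside 8.04% of all genes up and 8.2% down at 24 h. At 48 h these shares were 4.5% up and 3.88% down. Several lists lie near or below them. The lists too were chosen with earlier results of these data known, so a share above that of all genes is only a description. Of 10 other plasminogen-system genes kept, 0 rose and 2 fell at 24 h. These were IGF2R, a receptor that also binds PLAUR and plasminogen, at -0.83 ± 0.16 (adjusted p = 0.0026), and SERPINI1 (neuroserpin), the neuronal inhibitor of PLAT, at -1.24 ± 0.34 (adjusted p = 0.02). SERPINI1 was not called without the full-length series (-1.48, adjusted p = 0.079), without the truncated series (-0.77, adjusted p = 0.2) or without the truncated 24 h array (-0.77, adjusted p = 0.15). None of the 10 was called at 48 h. The median change of these 10 genes was -0.09 at 24 h and -0.08 at 48 h, where that of all genes was -0.03 and -0.01.

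Of 9 other metalloproteinases kept, 2 rose at 24 h and 1 at 48 h, with median changes of -0.14 and 0.03. MMP9, gelatinase B, read 89.1, 329.97 and 240.7 in full-length NRSF cells, 121, 239.98 and 202 in truncated NRSF cells and 88.4, 232 and 382 in untreated cells at 0, 24 and 48 h. MMP9 was above all its 0 h arrays at both later times, by 1.42 ± 0.27 at 24 h (adjusted p = 0.0019) and 1.43 ± 0.27 at 48 h (adjusted p = 0.0043). Without the full-length series MMP9 missed the threshold at 24 h (1.19, adjusted p = 0.07) and 48 h (1.43, adjusted p = 0.075), and without the untreated series at 48 h (1.09, adjusted p = 0.058). MMP10 (stromelysin-2) was dim, at 32.6 in full-length NRSF cells, 12.6 in truncated NRSF cells and 19.3 in untreated cells at 0 h. Its untreated 48 h array, at 4.448, lay under the floor, so the 48 h change depends on the floor. MMP10 was 2.04 ± 0.60 higher at 24 h (adjusted p = 0.029) and 0.25 at 48 h. The 24 h call of MMP10 was lost without the full-length series (2.07, adjusted p = 0.2), without the truncated series (1.76, adjusted p = 0.14) and without the truncated 24 h array (2.03, adjusted p = 0.096).

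Of 6 other inhibitors kept, 3 fell at 24 h and 1 rose at 48 h, with median changes of -0.13 and -0.11. TFPI2, a Kunitz inhibitor of plasmin, rose by 0.72 ± 0.14 at 48 h (adjusted p = 0.0045; without the full-length series 0.68, adjusted p = 0.08). SERPINH1, a collagen chaperone of the serpin fold that inhibits no protease, fell by 0.79 ± 0.17 at 24 h (adjusted p = 0.0042; without the truncated series -0.57, adjusted p = 0.054). CST3 (cystatin C), an inhibitor of cysteine cathepsins, was -0.73 ± 0.21 at 24 h (adjusted p = 0.025), and -0.32 (adjusted p = 0.31) without the truncated series. CST3 was also not called without the full-length series (-0.95, adjusted p = 0.065) or without the truncated 24 h array (-0.38, adjusted p = 0.21). TIMP2 was -0.44 ± 0.14 at 24 h (adjusted p = 0.036), a call lost without any one series, at -0.55 (adjusted p = 0.065) without full-length, -0.39 (adjusted p = 0.17) without truncated and -0.37 (adjusted p = 0.23) without untreated, and also without the truncated 24 h array (-0.43, adjusted p = 0.11).

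Among 19 other ADAMTS and procollagen-processing genes kept, 0 rose and 1 fell at 24 h, and 1 rose and 2 fell at 48 h, with median changes of -0.21 and -0.23. ADAMTS1, an aggrecan- and versican-cleaving protease, read 136, 73.5 and 649 in full-length NRSF cells, 79.8, 139 and 825 in truncated NRSF cells and 79.1, 102 and 275 in untreated cells at 0, 24 and 48 h. ADAMTS1 rose by 2.48 ± 0.33 at 48 h (5.56-fold, adjusted p = 0.00027), and its 24 h change was 0.09. PCOLCE, which enhances removal of the carboxy-terminal propeptide of procollagen, fell by 1.12 ± 0.15 at 24 h (adjusted p = 0.00012) and by 0.89 ± 0.15 at 48 h (adjusted p = 0.002). ADAMTS3, the closest relative of ADAMTS2 in procollagen processing, fell by 1.27 ± 0.30 at 48 h (adjusted p = 0.016), but was not called without the full-length series (-1.06, adjusted p = 0.21) or the truncated series (-1.08, adjusted p = 0.1).

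Of 10 membrane ADAM proteases kept, 0 rose, 2 fell at 24 h and 3 at 48 h, with median changes of -0.22 and -0.24. ADAM12 was -0.77 ± 0.19 at 24 h (adjusted p = 0.0096) and -0.80 ± 0.19 at 48 h (adjusted p = 0.014). Without the full-length series ADAM12 was -0.78 (adjusted p = 0.088) and -0.79 (adjusted p = 0.14), and without the untreated series -0.65 (adjusted p = 0.11) and -0.78 (adjusted p = 0.096). ADAM10 was -0.46 ± 0.14 at 24 h (adjusted p = 0.03) and -0.47 ± 0.14 at 48 h (adjusted p = 0.044), and both calls were lost without any one series, at -0.53 to -0.39 and -0.55 to -0.40. Without the truncated 24 h array the 24 h call of ADAM10 was lost too (-0.43, adjusted p = 0.11). ADAM19 was -0.81 ± 0.19 at 48 h (adjusted p = 0.015), a call lost without any one series (-0.91 to -0.74) and of the opposite sign with its probe sets averaged (0.32).

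Of 10 cathepsins and other pericellular proteases kept, 1 rose and 3 fell at 24 h, and 2 rose and 1 fell at 48 h, with median changes of -0.28 and -0.03. CTSL, the lysosomal and secreted cathepsin L, rose by 1.03 ± 0.14 at 24 h (adjusted p = 0.00012) and by 0.77 ± 0.14 at 48 h (adjusted p = 0.003; without the untreated series 0.67, adjusted p = 0.056). FAP, a surface serine protease of stromal cells, fell by 1.40 ± 0.25 at 24 h (adjusted p = 0.0014) and by 1.35 ± 0.25 at 48 h (adjusted p = 0.0041; without the full-length series -1.33, adjusted p = 0.076). HTRA1, a secreted serine protease, was -0.46 ± 0.14 at 24 h (adjusted p = 0.039) and 0.69 ± 0.14 at 48 h (adjusted p = 0.0075). The 24 h call of HTRA1 was lost without any one series (-0.50 to -0.42) and without the truncated 24 h array (-0.45, adjusted p = 0.11), and its 48 h call without the full-length series (0.67, adjusted p = 0.1) and the truncated series (0.58, adjusted p = 0.061). CTSK, the collagen-cleaving cathepsin K, was -1.60 ± 0.48 at 24 h (adjusted p = 0.031), a call lost without any one series (-1.95 to -0.99) and without the truncated 24 h array (-1.11, adjusted p = 0.15).

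Of 12 factors kept that are known to bind AP-1 and ETS elements of protease promoters, 6 rose and 1 fell at 24 h, and 1 rose at 48 h. Of all genes, 8.04% rose and 8.2% fell at 24 h, and 4.5% rose at 48 h. The median change of the 12 factors was 0.63 at 24 h and 0.21 at 48 h. This list was also chosen with earlier results of these data known. ATF3 rose by 3.36 ± 0.36 (adjusted p = 1.2e-05), JUN by 1.92 ± 0.21 (adjusted p = 1.2e-05), FOSL1 by 1.56 ± 0.20 (adjusted p = 5.8e-05) and FOS by 2.17 ± 0.31 (adjusted p = 0.00021) at 24 h, each in 3 of 3 series. These 4 of the 12 also fell between 24 and 48 h, beside 1.78% of all genes. Their changes were -1.95 ± 0.36 for ATF3, -1.74 ± 0.21 for JUN, -1.32 ± 0.20 for FOSL1 and -2.09 ± 0.31 for FOS (adjusted p between 0.00019 and 0.0062). Without the full-length series that fall missed the threshold for ATF3 (-2.06, adjusted p = 0.097) and FOSL1 (-1.17, adjusted p = 0.067). PLAU and PLAUR fell in the same interval, and whether these falls are linked was not tested. In the other related lists, ADAMTS1 (2.38), HTRA1 (1.15), IGF2R (0.64), TIMP2 (0.53) and CTSS (0.71) were called up in this interval. ADAM19 (-0.75) was called down, and 3.5% of all genes were called in either direction. These calls held in 10 of 13 alternatives for ADAMTS1 and 12 of 14 for HTRA1. They held in 5 of 14 for IGF2R and ADAM19 and 4 of 14 for TIMP2, and CTSS was not refitted. JUN read 965, 2570.7 and 787 in full-length NRSF cells, 818, 2695 and 713 in truncated NRSF cells and 438, 2707 and 896 in untreated cells at 0, 24 and 48 h. ETS1, an ETS factor, rose by 0.81 ± 0.17 at 24 h (adjusted p = 0.0043), a call lost without the full-length series (0.82, adjusted p = 0.065) and without the untreated series (0.59, adjusted p = 0.092). The sixth riser, FOSL2, was 0.70 ± 0.17 at 24 h (adjusted p = 0.0079), and 0.61 (adjusted p = 0.086) without the untreated series. ETV1 was the factor that fell (-0.67 ± 0.20, adjusted p = 0.03), a call lost without the truncated series (-0.62, adjusted p = 0.12), the untreated series (-0.42, adjusted p = 0.24) or the truncated 24 h array (-0.60, adjusted p = 0.12). FOSL2, ETV1 and CTSS were named after their values were seen. ATF3 was the riser at 48 h, at 1.41 ± 0.36 (adjusted p = 0.024), and was not called without the full-length series (1.66, adjusted p = 0.13) or the untreated series (0.60, adjusted p = 0.26).

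**Figure D5:**
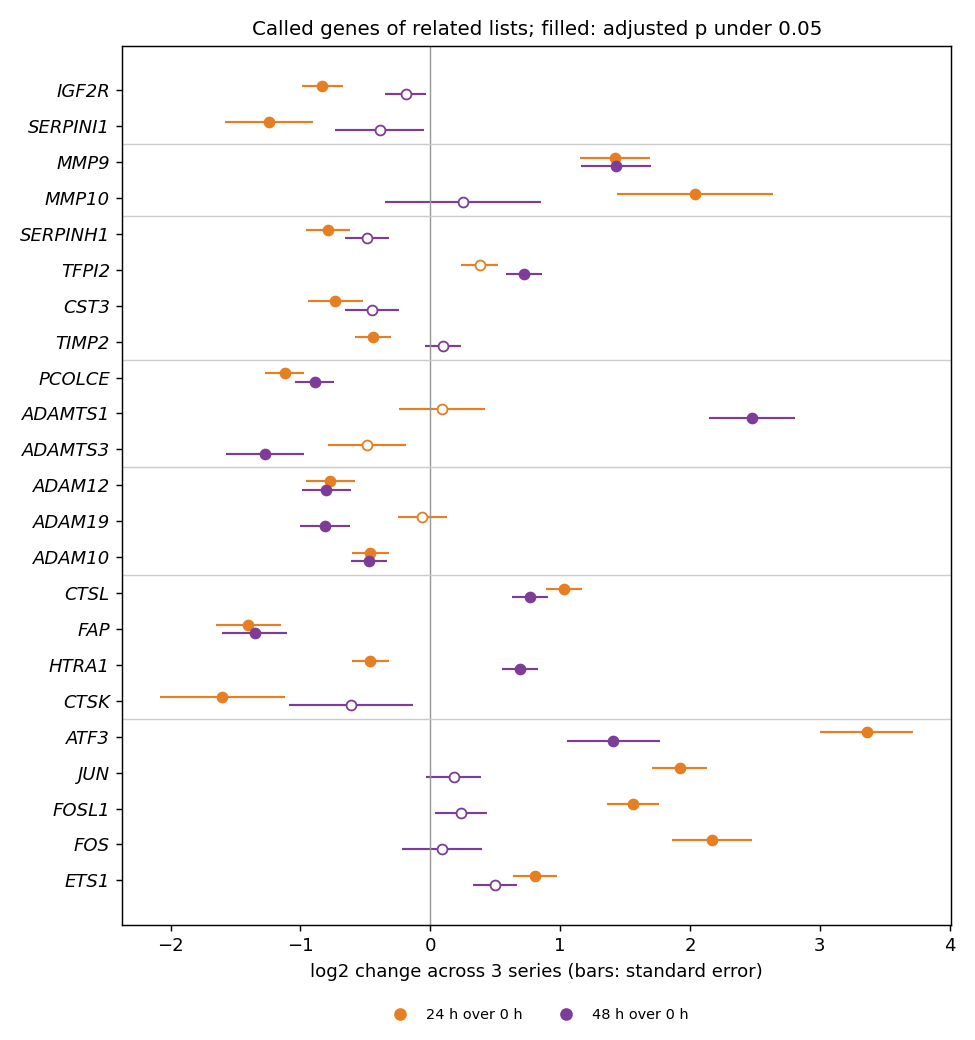
Log2 change at 24 and 48 h over 0 h across the 3 series for the called genes that are named by rule from 7 related lists, with bars for the standard error, filled points for an adjusted p under 0.05 and grey lines between lists. The AP-1 factors ATF3, JUN, FOSL1 and FOS lie far right at 24 h, ADAMTS1 lies far right only at 48 h, and PCOLCE and FAP lie left at both times.

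For each member, the genes with the most similar log2 signal over the 9 arrays were taken. For PLAU they were EIF5 (Pearson r = 0.979), TRIB1 (0.973) and NABP1 (0.973), and for PLAUR they were RNF149 (0.975), MAST4 (0.974) and USP53 (0.973). For PLAT they were MGST3 (0.938), ANXA3 (0.934) and GSTM3 (0.926), for SERPINE2 DRAM1 (0.958), ATP6V0D1 (0.958) and PSMD10 (0.951), and for MMP1 PQBP1 (0.953), ZNF584 (0.953) and DDX56 (0.943). For TIMP1 they were PDE12 (0.948), EMC3 (0.942) and EIF3D (0.935), and for ADAMTS2 EDEM3 (0.968), PET117 (0.967) and PALMD (0.967). MMP3 and TIMP3 had lower maxima, with GDPGP1 (0.933) for MMP3 and PLEKHG1 (0.889) for TIMP3. These values are maxima over all genes and share the same arrays.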

How the data were processed

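Signal intensity values of 54675 probe sets on 9 arrays were analysed as deposited by the authors. The submitters' processing notes name GCOS, with no version given in those notes, and the values show 1 trimmed mean (150.02, leaving out 2% at each end) on all arrays. Array numbers limit the precision. Groups came from the labels, with 1 array each. Intensities were floored at 8.266, the 25th percentile, and log2-transformed. Genes were named from the platform annotation (41091 probe sets had 1 gene, 1801 several), updated through gene identifiers, and 62 control probe sets were left out. Per gene, the probe set with the highest mean was taken, and 13799 genes above the 40th percentile of mean log2 were fitted in limma 3.58.1 (R 4.3.3) with series and time as terms. A second model added 1 term per construct. Tests were two-sided, with Benjamini-Hochberg adjustment over all genes and a threshold of 0.05. A further fit took all 26480 kept probe sets. Scripts were tested on simulated data.

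Named genes were the 9 members, up to 5 called genes per related list with the smallest adjusted p, and the 3 genes most correlated with each member. Members and lists were chosen with earlier results of these data known. Alternatives changed the floor, normalization, filter, probe set choice or variance trend, or left out the truncated 24 h array or 1 series. Figures used matplotlib 3.10.9.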

Additional observations from a re-analysis of the deposited data

Results flagged for a closer look

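TIMP3 was set apart because its brightest probe set moved in opposite directions in different series at both later times. The difference between these single arrays was not tested. With full-length NRSF it was 0.54 higher (log2) at 24 h and 1.15 higher at 48 h than at 0 h. With truncated NRSF the change was -0.997 at 24 h and -0.82 at 48 h, and in untreated cells it was -0.42 at 24 h and -0.59 at 48 h. With the mean of all 4 TIMP3 probe sets the 24 h change was -0.67 with full-length NRSF, -1.50 with truncated NRSF and 0.56 in untreated cells. At 48 h that mean changed by 0.12 with full-length NRSF, -0.46 with truncated NRSF and 0.12 in untreated cells, so full-length and untreated cells did not differ in direction there. The beta-actin 3′ to 5′ ratio moved opposite to the TIMP3 signal in both construct series. In untreated cells it moved the same way as TIMP3 at 24 h and opposite to it at 48 h. The part of this ratio was not tested. In the limma model, full-length over truncated NRSF missed the threshold over all genes (1.75, adjusted p = 0.17).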

How the results depend on the processing

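The time comparisons are paired within series, since series is a term of the model (4 residual degrees of freedom), and the labels give no replicate numbers for a further block. The 24 h rise of PLAU kept its call in all 13 alternatives (1.19 to 1.59). Members called at 24 h (4 as reported) became 2 with median centring, no filter, the mean of probe sets, no variance trend or without the truncated 24 h array, 1 without marked probe sets (of 6 members, since PLAU, PLAT and TIMP3 have only marked ones and were not tested), and 2 to 3 leaving out 1 series. Members called at 48 h (5) became 1 with median centring, 2 with the mean of probe sets, 0 with no filter or no variance trend, and 0 to 4 leaving out 1 series. Members called between 24 and 48 h (2) became 1 with median centring, 0 with no filter, no variance trend or without marked probe sets (of the same 6), and 0 to 3 leaving out 1 series. For full-length over truncated NRSF, 1 member in place of 0 was called with median centring and without the truncated 24 h array, a fit with 1 later truncated array.

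The following values changed sign. At 24 h, MMP3 (0.01) became -0.07 with quantile normalization, -0.06 with median centring, -0.48 without the truncated 24 h array and -0.70 to 0.94 leaving out 1 series, and TIMP3 (-0.29) lay between -0.71 and 0.06 leaving out 1 series. At 48 h, leaving out 1 series gave -0.17 to 0.06 for PLAT (above 0 without full-length) and -0.04 to 0.21 for PLAUR (below 0 without untreated), and TIMP3 became 0.28 without the truncated and 0.17 without the untreated series. Between 24 and 48 h, TIMP1 became -0.04 with quantile normalization. For full-length over truncated NRSF, SERPINE2 became -0.01 with quantile normalization and -0.20 without the truncated 24 h array, and with median centring PLAUR became 0.08 and PLAT 0.01. For truncated NRSF net of untreated, PLAUR became -0.14 with median centring, -0.48 with the mean of probe sets, -1.15 without marked probe sets and -0.04 without the truncated 24 h array. With the mean of probe sets, full-length net of untreated became -0.01 for PLAU, -0.62 for TIMP3 and 0.16 for ADAMTS2, the single-series change of TIMP3 became -0.67 at 24 h with full-length NRSF and 0.56 at 24 h and 0.12 at 48 h in untreated cells, that of ADAMTS2 at 24 h became 0.10 with full-length NRSF and 0.44 in untreated cells, and ADAM19 became 0.32 at 48 h. The causes were not tested. Genes called over the whole table ranged from 542 to 3466 at 24 h (2242 as reported), 18 to 1647 at 48 h (1156), 0 to 697 between the later times (483), 0 to 8 for full-length net of untreated (1), 0 to 54 for truncated net of untreated (5) and 0 to 31 for full-length over truncated (2), where quantile normalization gave 3 higher and 1 lower in place of 2 and 0. Median centring moved the median of all genes to -0.36 for truncated net of untreated and to 0.38 for full-length over truncated.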
